A study of Mus musculus with 222 samples.

Results

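The genes described here are 39 members of the replication and division machinery, taken by name from 24391 gene symbols in 5 tables of counts from mouse primordial germ cells. The members were listed by name, with earlier results of these data known: 19 act at the G1/S boundary and in S phase, and 20 act in G2 and mitosis. All 39 passed the filter on low counts in every comparison. Germ cells were sorted by an Oct4-GFP reporter from embryonic gonads of C57BL/6;129S1/SvlmJ mice at E11.5, E12.5 and E13.5. ECKO germ cells lacked Eed, a core subunit of the Polycomb repressive complex PRC2, through Blimp1-Cre (BC), which as background acts in early germ cells. Mothers were OG; Eed fl/fl and fathers BC; Eed fl/+, so every embryo carried at least 1 floxed Eed allele, Controls included, although the labels give Controls as wild type. Sorted-cell libraries numbered 4 Control and 4 ECKO at E11.5 XY, 3 and 4 at E11.5 XX, and 4 and 3 at E13.5 XY. At E12.5, full-length single-cell libraries came from 2 embryos per sex and genotype, and 127 of 192 cells were kept.

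Before a cell copies its DNA, the MCM2-7 helicase is loaded at origins by Cdc6 and Cdt1, cyclin E with its kinase starts the firing of origins, and Cdc45 and the GINS complex turn the loaded helicase into a moving one. Later in the cycle, cyclin B with Cdk1 drives entry into mitosis, the Aurora and Polo kinases and kinesins build the spindle, and Cdc20 activates the anaphase-promoting complex once the checkpoint is satisfied. S phase genes are typical targets of E2F factors, while mitosis genes are typically controlled through CHR and CCAAT elements bound by the MuvB complex and NF-Y. Germ cells of the mouse testis stop dividing and enter mitotic arrest from about the oldest stage sampled here, and those of the ovary enter meiosis.

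The promoter sequences show which words each class holds. RefSeq gave a start for 30 of the 39 members (GRCm38.p6), 15 of each class, and the 250 bases before each start were searched on both strands. Whether each start, that of E2f1 included, is the main start of its gene was not checked, so a window without a word may miss the main promoter. The E2F words were TTTCCCGC, TTTGGCGC, TTTGCCGC and TTTCGCGC, the CHR words TTTGAA and TTCGAA, and the third word CCAAT. An E2F word and its reverse complement can overlap and then count as 2. E2F words stood before 4 of 15 S phase members (26.7%: Mcm5, Mcm6, Mcm7 and Cdc6), before 1 of 15 mitosis members (Cdk1) and in 1.86% of all 32851 promoters. CHR words stood before 7 of 15 mitosis members (46.7%) and 3 of 15 S phase members (20%), against 17.1% of all promoters. All 7 mitosis promoters with a CHR word also held CCAAT, as did all 3 of S phase; the pair was found in 6.02% of all promoters. CCAAT alone stood before 13 of 15 mitosis (86.7%) and 10 of 15 S phase members (66.7%), against 33.8% of all promoters. Among promoters of genes tested at E11.5 XY, the shares were 4.06% for E2F, 14.1% for CHR and 5.59% for CHR with CCAAT. The 6 promoters shown are 3 of each class, the 160 bases up to the start, 5′ to 3′ on the gene's strand, with every matched word in capitals. They were picked for their words and, for Rrm2, for its level in ECKO cells. In order they lie at chr8:75109349-75109508 (plus strand), chr1:128359706-128359865 (minus), chr12:24708094-24708253 (plus), chr10:69352913-69353072 (minus), chr4:118437344-118437503 (minus) and chr11:99024190-99024349 (minus).
Mcm5: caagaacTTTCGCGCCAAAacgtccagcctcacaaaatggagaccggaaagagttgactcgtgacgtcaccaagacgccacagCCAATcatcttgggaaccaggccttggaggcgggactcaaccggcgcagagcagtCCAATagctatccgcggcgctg
Mcm6: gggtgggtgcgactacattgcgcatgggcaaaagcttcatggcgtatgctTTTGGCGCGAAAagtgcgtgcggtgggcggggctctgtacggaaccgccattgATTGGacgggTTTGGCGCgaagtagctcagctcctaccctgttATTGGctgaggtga
Rrm2: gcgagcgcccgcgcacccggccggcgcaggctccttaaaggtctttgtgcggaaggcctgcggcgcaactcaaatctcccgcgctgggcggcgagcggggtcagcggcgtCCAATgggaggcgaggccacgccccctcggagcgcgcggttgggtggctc
Cdk1: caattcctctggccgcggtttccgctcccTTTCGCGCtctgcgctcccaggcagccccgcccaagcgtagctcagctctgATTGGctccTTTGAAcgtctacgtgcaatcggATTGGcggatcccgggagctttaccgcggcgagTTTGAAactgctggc
Cdc20: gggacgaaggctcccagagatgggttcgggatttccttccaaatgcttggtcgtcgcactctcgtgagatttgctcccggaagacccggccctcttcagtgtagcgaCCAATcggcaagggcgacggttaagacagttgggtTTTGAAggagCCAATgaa
Top2a: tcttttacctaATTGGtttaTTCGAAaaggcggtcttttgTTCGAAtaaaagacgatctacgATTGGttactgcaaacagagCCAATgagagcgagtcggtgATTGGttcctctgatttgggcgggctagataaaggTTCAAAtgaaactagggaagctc
Mcm5 holds overlapping E2F words 153 and 149 bases before its start. Mcm6 holds an overlapping pair at 110 and 106 bases and a further one at 47. Rrm2, the member with the most negative fold change at E13.5, held none of the E2F or CHR words in this window and 1 CCAAT. Cdk1 held both kinds, with CHR words 71 and 15 bases before its start. Cdc20 had its CHR word 18 bases before the start, and Top2a had 4 CHR words and 6 CCAAT words in its full window. A match is a run of letters and was not tested as a binding site.

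Several facts of the whole series bear on the values. Total counts ran from 415291 to 14974853 per sorted-cell library, and the kept E12.5 cells held 70194 to 4424783 counts. Levels are CPM, counts scaled to a common library total, after scaling by trimmed mean of M values (TMM), and set no order between genes because lengths differ. Eed read 76.3 to 135 CPM in E11.5 XY Control and 15.7 to 46.0 in ECKO, 74.2 to 84.6 and 11.9 to 26.6 at E11.5 XX, and 63.7 to 129.5 and 3.18 to 14.4 at E13.5 XY. Which exons are removed is not given in the sources used here, so the remaining counts do not measure incomplete deletion. At E13.5, ECKO replicate 1 stood apart from the other two: the male germ cell regulator Nanos2 read 2.16 CPM there against 59.4 and 60.2, and 0.136 to 2.84 in Control. Control replicate 3 of that stage also stood apart in several mitosis genes. The labels do not say whether replicates of a group came from separate embryos or litters, so p-values measure only the spread between these samples. In sorted bulk samples, fewer dividing cells and less RNA per dividing cell cannot be told apart.

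At E11.5 XY, Mcm10, which helps activate the loaded helicase, was the 1 member that fell in ECKO germ cells. Most members of both classes had negative fold changes, with a median further below 0 for S phase than for mitosis; the difference between the classes was not tested. Mcm10 read 155, 115, 147 and 156 CPM in Control and 89.9, 87.8, 64.2 and 98.0 in ECKO. No ECKO library reached the lowest Control. Its log2 fold change was -0.74 (SE 0.18, adjusted p = 0.0427, edgeR quasi-likelihood test over 12497 genes, Benjamini-Hochberg). Over all genes, 0.616% were called lower and 1.51% higher. The call did not hold in 7 of the 8 fits that left out 1 library and held without ECKO replicate 4; over the 8 fits adjusted p ran from 0.0473 to 0.142. Without TMM scaling it did not hold either. DESeq2 called 4 members lower (Mcm10, Cdc6, Rrm2 and Tyms), among 1.84% of all genes that it called lower.

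Of the 19 S phase members 17 had a log2 fold change below 0 at E11.5 XY, with a median of -0.41, against 14 of 20 mitosis members with a median of -0.06 and 49.9% of all genes with a median of 0.00. An unadjusted p under 0.05 was found for 10 S phase members, no mitosis member and 16.1% of all genes. Rrm2, the small subunit of the ribonucleotide reductase that makes deoxynucleotides, read 294, 314, 299 and 322 CPM in Control and 202, 263, 202 and 193 in ECKO. The groups did not overlap, and the estimate was -0.50 on the log2 scale (SE 0.14, adjusted p = 0.0805). Cdc6, the loader of the helicase, read 89.3, 73.3, 92.0 and 95.8 CPM in Control and 45.3, 61.8, 41.0 and 62.0 in ECKO (-0.72, SE 0.21, adjusted p = 0.0868). Mcm2 gave -0.02, while Mcm3 and Mcm4, subunits of the same hexamer, each gave -0.41. E2f1, the transcription factor upstream of many of these genes, and Gins2 had positive values of 0.43 and 0.49. Every ECKO value lay below every Control value for 8 S phase members (Ccne1, Mcm4, Cdc6, Cdt1, Mcm10, Gins1, Rrm2 and Tyms) and for Cdk1 and Plk1 among the mitosis members, against 4.99% of all genes. The mitotic cyclins Ccna2 (-0.04), Ccnb1 (-0.17) and Ccnb2 (0.23), the checkpoint kinases Bub1 and Bub1b (both -0.04) and Top2a, which untangles replicated chromosomes (-0.12), had adjusted p values of 0.603 to 0.927.

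The lists of related genes held no call at E11.5 XY. Of 48 other replication genes 43 had values below 0 (median -0.17), as did 39 of 61 other mitosis genes (median -0.06). None of these, of 16 genes of the anaphase-promoting complex and of 18 E2F, RB and MuvB genes was called.

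At E11.5 XX no member passed the test, among 0.136% of genes called higher and 0.0362% lower. DESeq2 called Ccne1 and Cdt1 lower, among 0.552% of all genes, and 7 members had an unadjusted p under 0.05 in edgeR, against 13.9% of all genes. Cdt1, which loads the helicase together with Cdc6, read 141, 164 and 144 CPM in Control and 71.6, 57.6, 85.0 and 71.3 in ECKO. The 2 groups were well apart (-1.07, SE 0.22, adjusted p = 0.0814). Ccne1, cyclin E1, read 51.6, 63.9 and 89.7 CPM in Control and 30.1, 34.3, 28.3 and 27.5 in ECKO (-1.21, SE 0.31, adjusted p = 0.122). Cdc45 gave -0.97 (SE 0.27, adjusted p = 0.143). Of the S phase members 17 of 19 had values below 0, with a median of -0.37, and of the mitosis members 10 of 20, with a median of -0.01; the median of all genes was 0.03. Without TMM scaling the mitosis median was 0.09. Every ECKO value lay below every Control value for 6 S phase members (Ccne1, Ccne2, Mcm5, Cdt1, Cdc45 and Rrm2) and no mitosis member, against 4.92% of all genes. Plk1, the Polo kinase, and Cenpe, a kinetochore motor, lay the other way without overlap, with adjusted p values of 0.404 and 0.193, against 7.65% of all genes. The test of a difference between the sexes called no member and 0% of all genes; 3 members and 5.27% of all genes had an unadjusted p under 0.05, and DESeq2 also called no member.

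**Figure D1:**
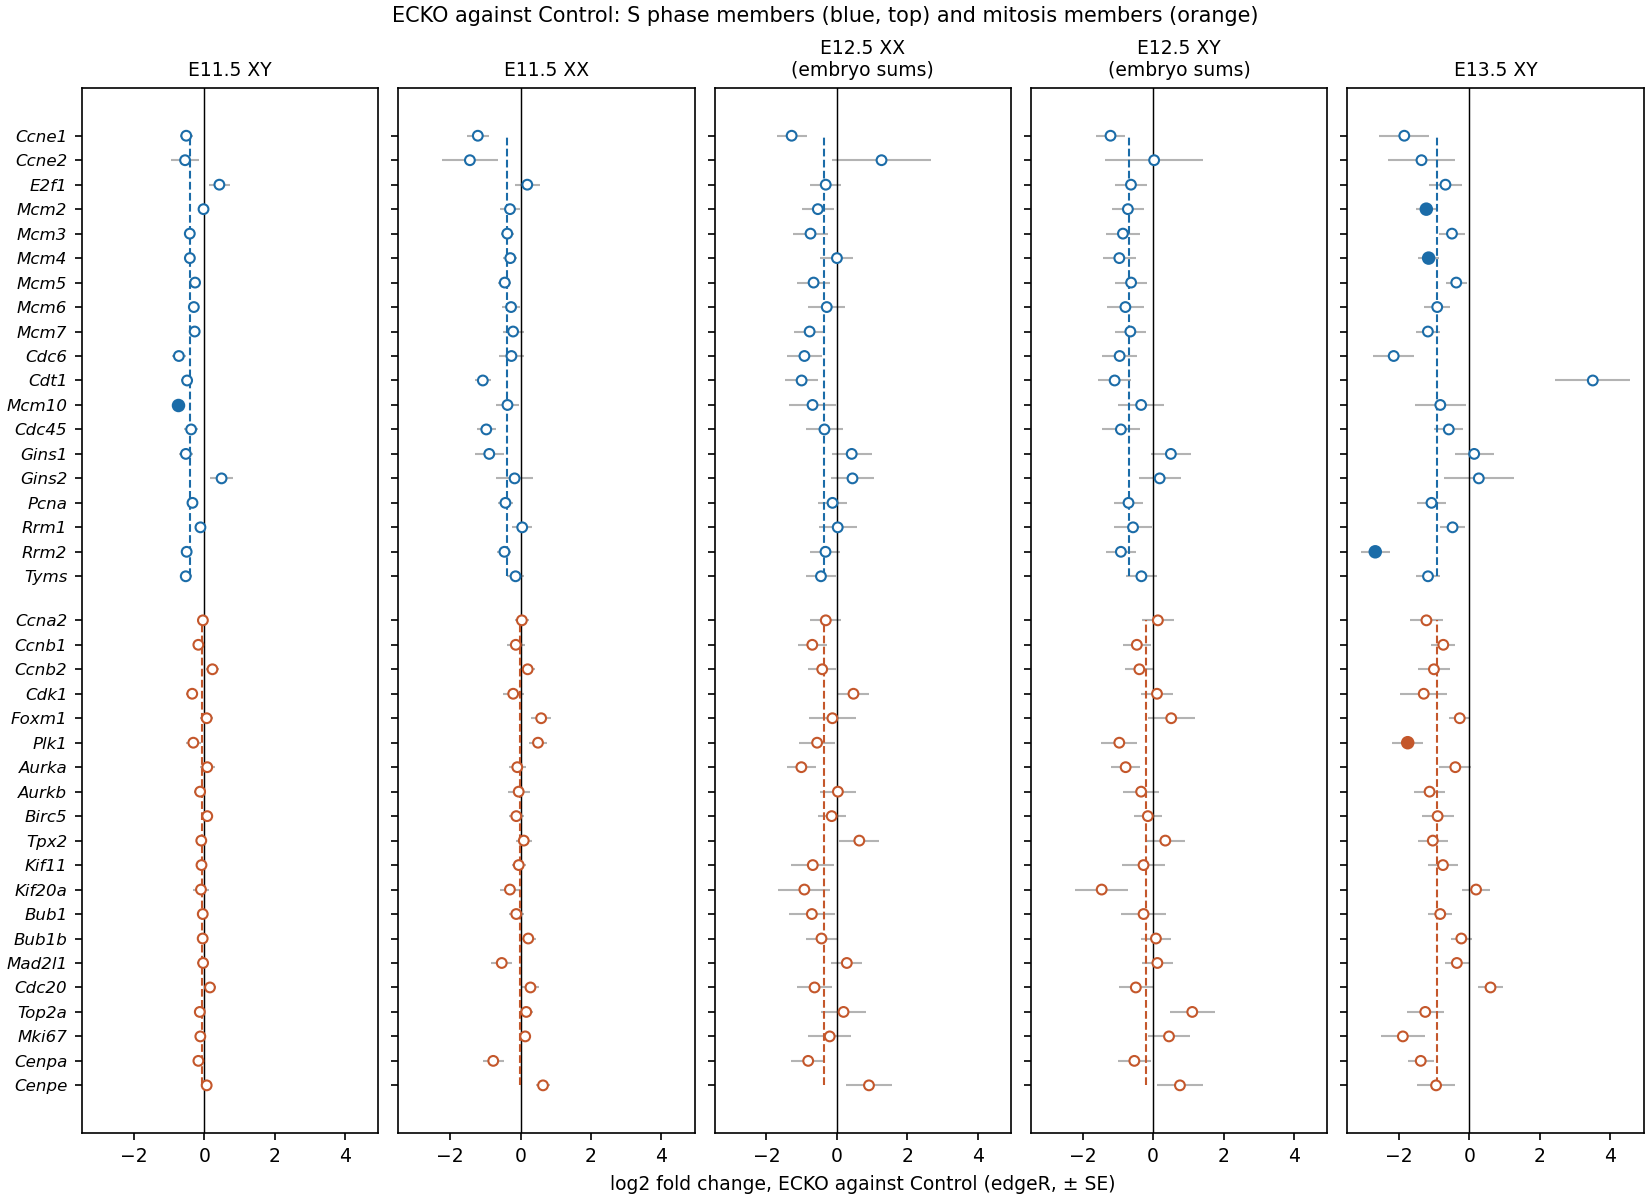
Log2 fold change of each member, ECKO against Control, in the 5 comparisons (points, edgeR estimate; horizontal lines, SE; filled points, adjusted p under 0.05; dashed lines, class median). At E11.5 XY the S phase median lies at -0.41 and the mitosis median at -0.06, while at E13.5 XY both lie near -0.9; the isolated Cdt1 point at E13.5 (3.50) rests on 1 ECKO library.

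Summed over each class, the S phase members were lower against the mitosis members in ECKO at E11.5. The 19 S phase members summed to 3571 to 3953 CPM in XY Control and 2830 to 3141 in XY ECKO, while the 20 mitosis members summed to 5446 to 6088 and 5134 to 5959. The ratio of the S phase to the mitosis sum was 0.617, 0.686, 0.623 and 0.649 in XY Control and 0.503, 0.553, 0.523 and 0.612 in XY ECKO. In XX it was 0.678, 0.639 and 0.811 in Control and 0.558, 0.547, 0.508 and 0.540 in ECKO. All ECKO ratios lay below all Control ratios of the same sex, and TMM factors cancel in a ratio. Markers of other gonadal cells differed too: the summed interstitial list reached 433 CPM in 1 XY ECKO and 1322 CPM in 1 XX ECKO library against at most 171 in Controls. In XY, supporting cell markers summed to 17.6 to 57.6 CPM in ECKO and 11.6 to 18.1 in Control, and germ cell markers to 2073 to 2899 and 2762 to 3080. The part of these lists in the ratios was not tested.

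**Figure D2:**
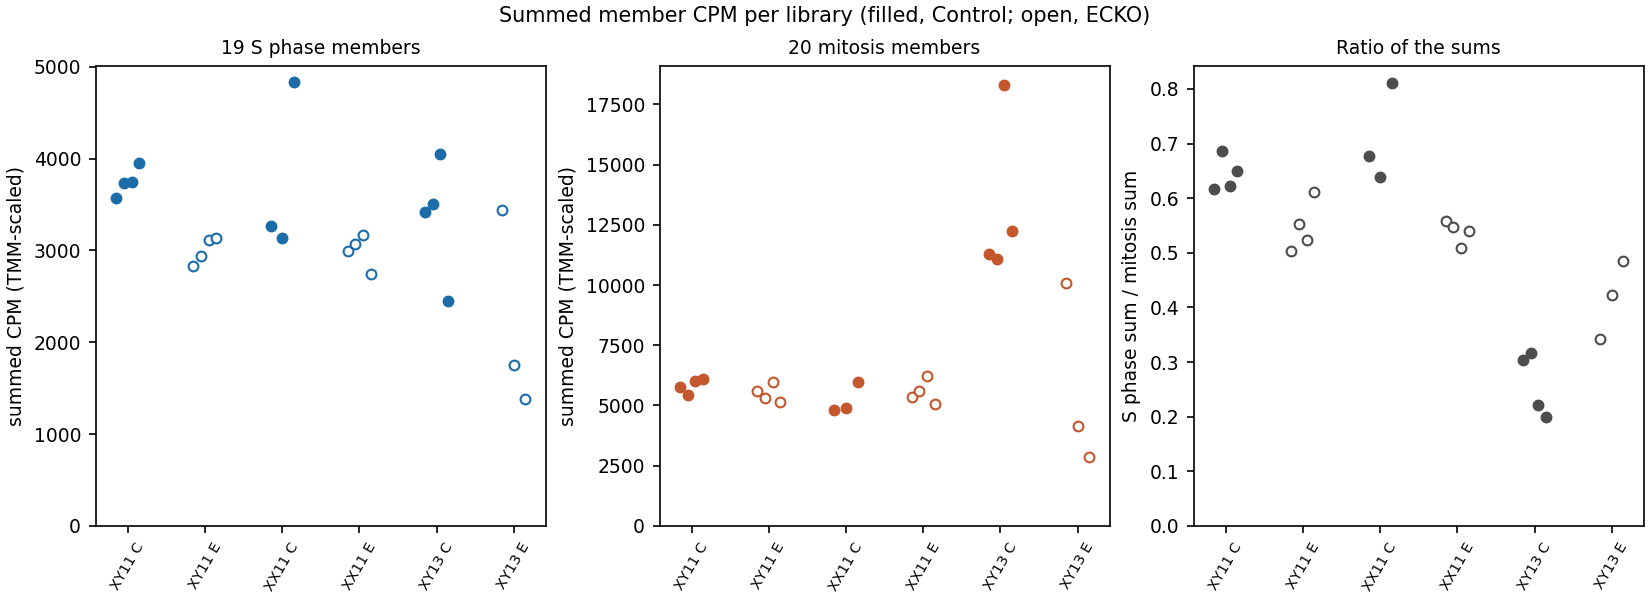
Summed CPM of the S phase and mitosis members and their ratio in each sorted-cell library (XY11, XX11 and XY13 are E11.5 XY, E11.5 XX and E13.5 XY; C, Control, filled; E, ECKO, open). The ratio is lower in ECKO at E11.5 and higher in ECKO at E13.5, where mitosis sums run from 11070 to 18310 CPM in Control and 2845 to 10070 in ECKO. The lowest E13.5 ECKO ratio, 0.342 in replicate 1 against 0.2 to 0.317 in Control, includes the Cdt1 level of that library. Cdt1 alone gave 1344 of the 3441 CPM of its S phase sum. The sums weigh genes by level: Top2a and Mki67 averaged 1337 and 1123 CPM in E13.5 ECKO, where the mean mitosis sum was 5686. Median log2 fold changes at E13.5 were nearly equal, -0.92 for S phase and -0.93 for mitosis, so the ratio does not rank the classes.

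At E13.5 XY, 4 members fell in ECKO germ cells and none rose, among 1.9% of genes called lower and 2.99% higher. They were Rrm2, the helicase subunits Mcm2 and Mcm4, and the mitotic kinase Plk1. Rrm2 read 156, 103, 110 and 98.7 CPM in Control and 18.6, 24.3 and 12.3 in ECKO. Its log2 fold change was -2.67 (SE 0.41, adjusted p = 0.00856), and it was called in all 7 fits that left out 1 library (-2.91 to -2.44). Mcm2 read 368, 403, 387 and 274 CPM in Control and 169, 162 and 129 in ECKO (-1.23, SE 0.30, adjusted p = 0.0386). Mcm4 read 306, 304, 340 and 233 CPM in Control and 148, 138 and 112 in ECKO (-1.16, SE 0.30, adjusted p = 0.0470). Plk1 read 164, 152, 143 and 106 CPM in Control and 69.7, 31.0 and 23.2 in ECKO (-1.75, SE 0.44, adjusted p = 0.0414). None of the 4 overlapped between the groups. The calls of Mcm2, Mcm4 and Plk1 were less stable: with 1 library left out they held in 2, 1 and 2 of 7 fits.

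Both classes lay lower in ECKO at E13.5 XY. Values below 0 were found for 16 of 19 S phase members (median -0.92) and 18 of 20 mitosis members (median -0.93), against 48.2% of all genes (median 0.05). Without Control replicate 3 the medians were -0.77 for S phase and -0.59 for mitosis. Every ECKO value lay below every Control value for 8 S phase and 9 mitosis members, against 11.6% of all genes, and for no member the other way. The mitosis members in that count were Ccna2, Cdk1, Plk1, Aurkb, Tpx2, Bub1, Top2a, Mki67 and Cenpa. The exceptions to the direction were Cdc20 (0.60), which switches on the anaphase-promoting complex, the mitotic kinesin Kif20a (0.19), Gins1 (0.13), Gins2 (0.27) and Cdt1. Cdc20 read 68.6, 79.8, 51.7 and 53.2 CPM in Control and 118, 93.8 and 75.1 in ECKO, with adjusted p = 0.335.

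ECKO replicate 1 set much of the spread at E13.5. Cdt1 read 1344 CPM in it, against 23.8 and 27.9 in the other two ECKO libraries and 31.8 to 52.8 in Control. Mki67, a marker of cycling cells, read 2431 CPM in it against 610 and 328, with Control libraries at 3268, 2892, 6324 and 4514. Top2a read 2655 CPM in it against 839 and 515, with Control at 2914, 3032, 4331 and 2733. For both genes this library lay nearer to Control than to its own group, while for Rrm2 and Mcm2 it lay with its own group. Without it, 17 members were lower and none higher, 8 of S phase and 9 of mitosis, among 8.87% of all genes called lower. They included Mki67 (-3.26, SE 0.44, adjusted p = 0.00234), Top2a, Ccna2, Ccnb2, Cenpe and Tpx2, and Cdt1 went from 3.50 to -0.80 (adjusted p = 0.263). DESeq2 on all 7 libraries called 9 members lower, among 5.67% of all genes.

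**Figure D3:**
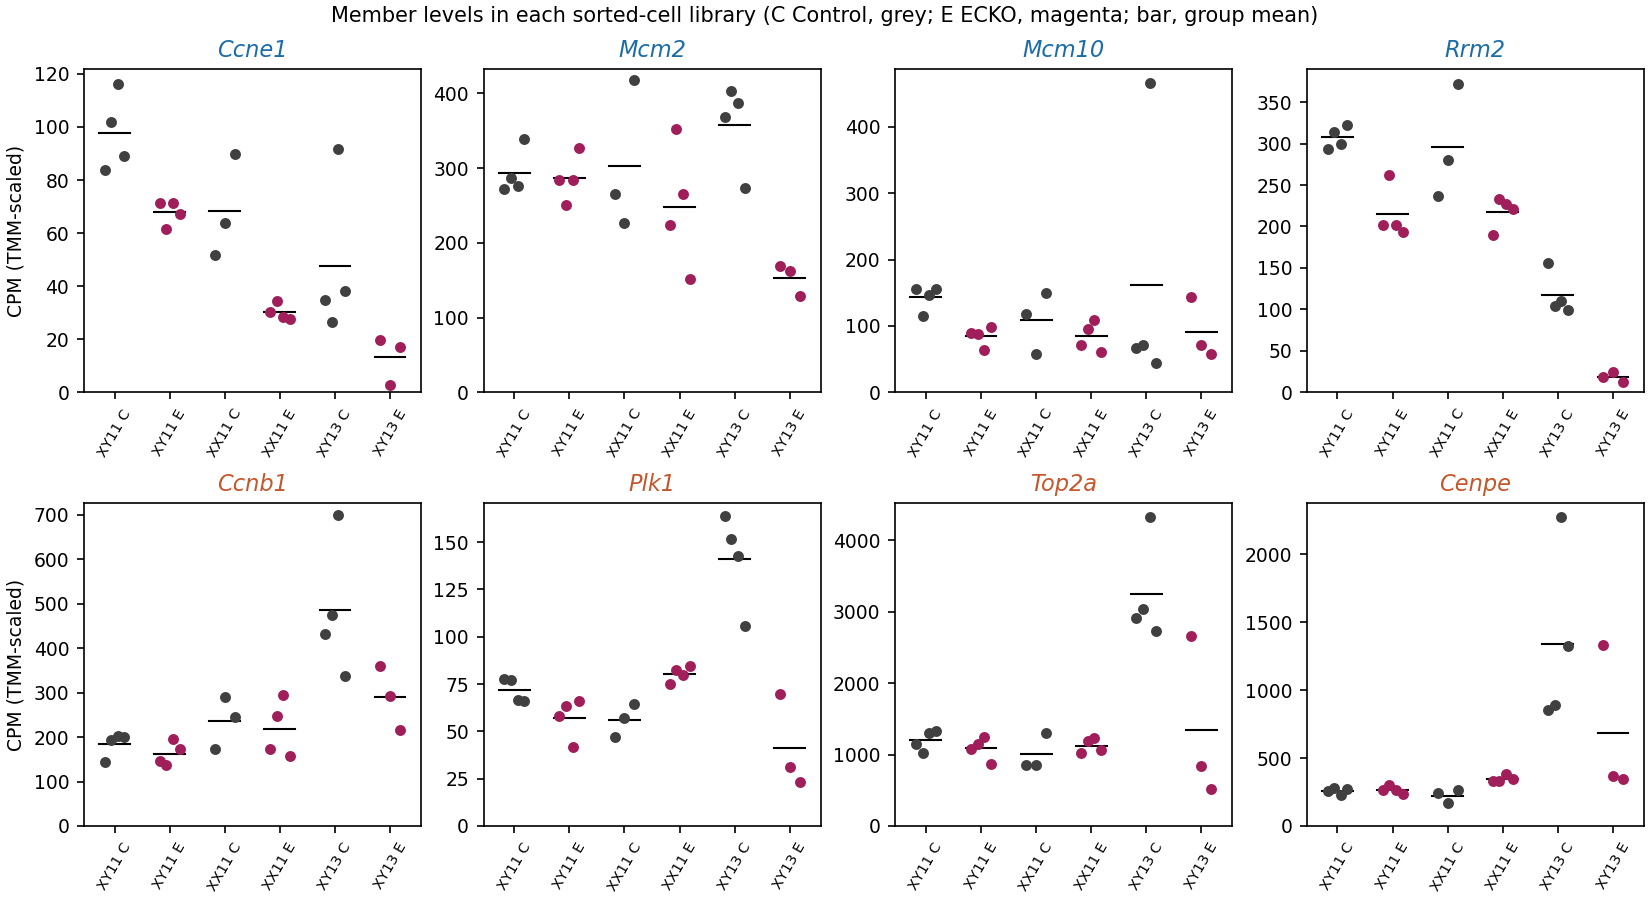
CPM of 4 S phase members (upper row) and 4 mitosis members (lower row) in every sorted-cell library, with group means as bars (labels as XY11 C for E11.5 XY Control). Rrm2 and Mcm2 separate ECKO from Control at E13.5 in every library, whereas 1 ECKO library sits at 2655 CPM for Top2a, beside the Controls.

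Related replication and mitosis genes also had mostly negative values at E13.5 XY, 41 of 48 (median -0.70) and 52 of 61 (median -0.83). Of 48 other replication genes 5 fell and none rose, among them Timeless, a fork protection factor (-1.89, adjusted p = 0.0171), and Pola1, the catalytic subunit of the priming polymerase (-1.82, adjusted p = 0.0285). Of 61 other mitosis genes tested 9 fell and none rose, among them the kinesins Kif14 (-2.51, adjusted p = 0.00535) and Kif23 (-1.67, adjusted p = 0.0243). In the E2F, RB and MuvB list, Mybl2, the B-Myb factor that works with MuvB (-1.66, adjusted p = 0.0126), and the MuvB subunit Lin9 (-1.81, adjusted p = 0.0416) fell. Of 16 genes of the anaphase-promoting complex, Fbxo5, an inhibitor of that complex, fell (-2.10, adjusted p = 0.0493), while 9 of 16 had values above 0. Some summed marker lists differed between genotypes at this stage, while single markers went both ways. The 13 germ cell markers summed to 4467 to 5508 CPM in Control and 2642 to 3875 in ECKO, and the 9 endothelial markers to 184 to 246 and 31.3 to 87.1. Of the germ cell markers 8 had values below 0 and 5 above, with 1 called in each direction. Only 4 endothelial markers were tested, 1 with a value below 0 and 3 above, with a median of 0.59. The 16 supporting cell markers summed to 17.5 to 310 and 69.7 to 91.7 CPM. Their part in the lower cell cycle genes was not tested.

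Cyclin E1 and Rrm2 were the members that lay lower in every ECKO sample than in any Control of the same sex and stage in all 5 genotype comparisons, E12.5 included. The same held for 23 of 10371 genes tested in all 5 (0.222%), Eed among them. Ccne1 read 83.9, 102, 116 and 89.0 CPM in E11.5 XY Control and 71.4, 61.5, 71.4 and 67.1 in ECKO. At E13.5 XY it read 34.7, 26.3, 91.5 and 38.1 CPM in Control and 19.7, 2.81 and 17.1 in ECKO. Ccne1 passed the adjusted threshold in none of the 5 edgeR comparisons (adjusted p 0.122 to 0.719).

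Between E11.5 and E13.5 in XY Control, the medians of the 2 classes had opposite signs. Of the mitosis members 8 rose and 5 fell, with a median of 0.58, and of the S phase members 6 fell and none rose, with a median of -0.84. Over all 14447 genes 15.8% rose and 15.7% fell, with a median of -0.14. Those that rose were Ccnb1, Ccnb2, Foxm1 (a transcription factor of G2 and mitosis genes), Plk1, Tpx2, Top2a, Mki67 and Cenpe. Those that fell were E2f1, Mcm5, Cdc45, Gins1, Gins2 and Rrm2 of S phase, and Cdk1, Aurka, Birc5, Cdc20 and Cenpa of mitosis. Without E13.5 Control replicate 3 the mitosis median was 0.39 and the S phase median -0.88. Without TMM scaling the mitosis median was 0.37 and the S phase median -0.99, with -0.32 for all genes.

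Cenpe showed the largest rise among members in Control, from 256, 276, 231 and 272 CPM at E11.5 to 857, 894, 2273 and 1328 at E13.5 (2.27, SE 0.36, adjusted p = 8.66e-05). Ccnb1 went from 144, 193, 203 and 200 CPM to 431, 475, 699 and 338 (1.30, SE 0.24, adjusted p = 0.000358). Its partner kinase went the other way: Cdk1 read 87.6, 121, 84.4 and 115 CPM and then 46.0, 44.8, 42.0 and 37.5 (-1.35, SE 0.41, adjusted p = 0.0167). For all 3 genes the stages did not overlap in Control. How many of all genes did the same was not counted. In edgeR 41.9% of all genes had an unadjusted p under 0.05 between these stages. Mki67 went from 1127 to 1365 CPM at E11.5 to 2892 to 6324 at E13.5 (1.64, SE 0.40, adjusted p = 0.00352). Of the S phase members, Rrm2 fell from 294 to 322 CPM to 98.7 to 156 (-1.49, SE 0.23, adjusted p = 7.06e-05). Gins2, a subunit of GINS with low counts, fell from 14.2 to 35.1 CPM to 1.36 to 9.82 (-2.39, SE 0.56, adjusted p = 0.00274). Among MCM subunits other than Mcm5, values ran from -0.40 (Mcm3) to 0.22 (Mcm7), and none of these passed the test. Pcna, the sliding clamp of replication, gave 0.74 (adjusted p = 0.0521).

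Counts in the related lists are read against the 15.8% and 15.7% of all genes that rose and fell. In Control, 18 of 61 other mitosis genes rose, among them Kif18b (1.58) and Kif14 (1.47), and 9 fell, among them Pttg1, the inhibitor of separase (-2.46). Of 48 other replication genes, with a median of 0.07, 9 rose, among them the origin subunit Orc3 (1.63), and 9 fell, among them Rpa3 (-3.44) and Pold1 (-2.52). The cell cycle repressor Rb1 rose by 1.51 (adjusted p = 0.000425) in Control and 1.68 (adjusted p = 0.000449) in ECKO. Nanos2 was at 0 in every E11.5 library.

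Gene span moved with stage as well. Over 13763 genes with a RefSeq span, split into 4 equal classes by span, the shortest class had a median of -0.98 in Control and the longest 0.45 (Spearman's rho 0.28 across genes). In ECKO the medians were -0.62 and 0.39. Relative to the median of genes in the same class, the mitosis median in Control was 0.84 in place of 0.58 and the S phase median -0.48 in place of -0.84. On that scale 4 of 20 mitosis members changed sign (Aurkb, Bub1b, Cenpa and Kif20a), as did Mcm4 of the S phase members; Cenpa went from -0.78 to 0.20. Rrm2 was at -0.50 and Cdc20 at -0.10. The part of gene span in the stage differences was not tested further. Stage and table cannot be told apart, since each stage has its own count table.

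In XY ECKO, 3 members rose between E11.5 and E13.5 and 16 fell, against 11.4% and 12.3% of all genes. The risers were Ccnb1 (0.73, adjusted p = 0.0409), Cenpe (1.25, adjusted p = 0.0192) and Cdt1 (2.38, adjusted p = 0.0309). The S phase median was -0.88 and the mitosis median -0.20, with -0.06 for all genes. Rrm2 fell by 3.64 on the log2 scale (SE 0.29, adjusted p = 2.58e-08), from 193 to 263 CPM to 12.3 to 24.3. Birc5, the survivin subunit of the chromosomal passenger complex, fell by 2.32 (SE 0.32, adjusted p = 2.93e-05), and its partner Aurkb fell by 1.32 (adjusted p = 0.00547). E2f1 fell by 2.68 (SE 0.41, adjusted p = 0.000109) and Ccne1 by 2.46 (SE 0.51, adjusted p = 0.00153). Mki67 gave -0.16 and Top2a 0.20, neither past the test. Without E13.5 ECKO replicate 1, none rose and 24 fell, among 11.2% of all genes called lower, with medians of -1.01 for S phase and -0.75 for mitosis; Cdt1 then fell by 1.78 and Mki67 by 1.41.

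**Figure D4:**
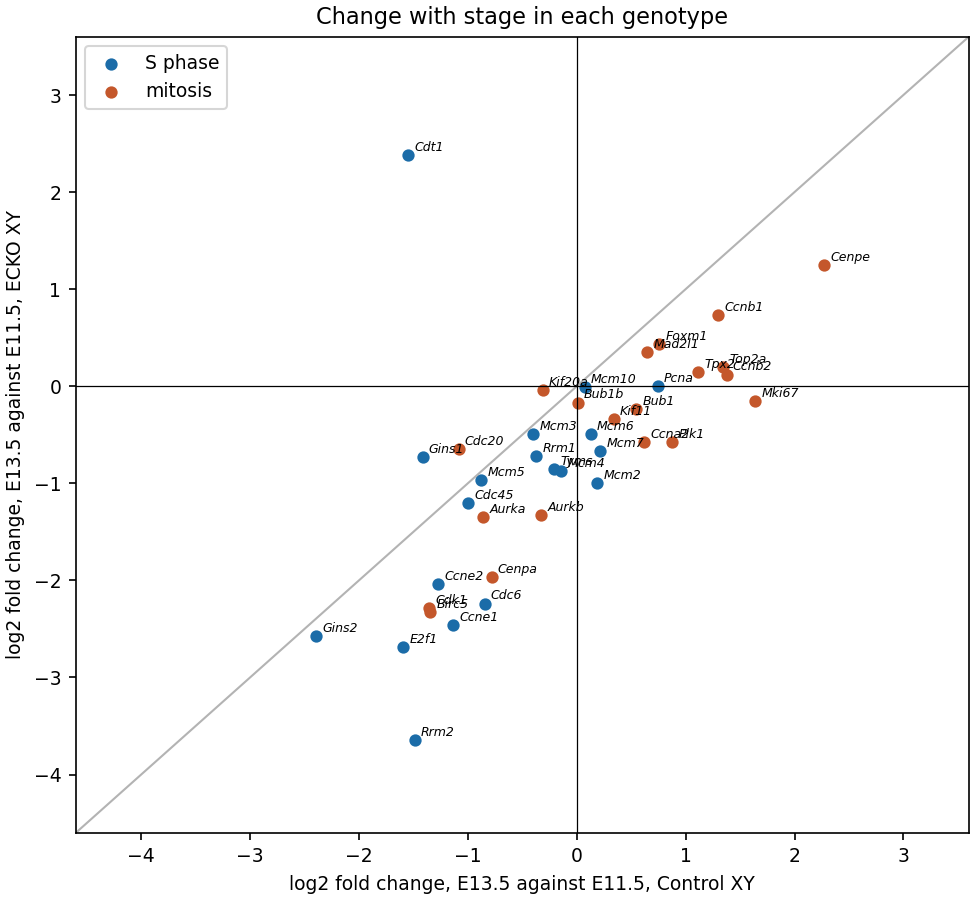
Log2 fold change of each member from E11.5 to E13.5 in XY Control (horizontal) and XY ECKO (vertical), with the line of equal change in grey. The interaction estimate is negative for 35 of 39 members; Rrm2 is at -1.49 and -3.64, and Cdt1, above the line, is raised in ECKO by 1 library.

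The interaction test asks whether the ECKO effect differs between the stages. It called Rrm2 (-2.15, SE 0.35, adjusted p = 0.00592) and Mcm2 (-1.19, SE 0.29, adjusted p = 0.0471), both more negative at E13.5, among 0.706% of genes called in that direction and 0.491% in the other. Rrm2 was called in all 15 fits that left out 1 library and Mcm2 in 2 of 15. Of the 39 members 35 had a negative interaction, with medians of -0.64 for S phase, -0.95 for mitosis and 0.00 for all genes. Without E13.5 ECKO replicate 1, 12 members were called, all negative: Mcm2, Mcm6 and Rrm2 of S phase, and Ccna2, Ccnb2, Plk1, Tpx2, Bub1, Top2a, Mki67, Cenpa and Cenpe of mitosis. In that fit 5.13% of all genes were called lower. Of the other lists, the interaction called 1 replication gene, Pola1 (-1.81), 6 mitosis genes, among them Kif14 (-2.20), Kif23 (-1.66), Ncaph, a condensin subunit (-1.56) and Cdca3 (-1.65), and, of the E2F, RB and MuvB genes, Mybl2 (-1.41).

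At E12.5, 1 XX ECKO cell has labels that disagree on its genotype, and the 1 kept cell that could be it was included; without it still no member was called. No member passed the test in either sex, among 0.0215% of genes called in XX and 0.00717% in XY, with 2 embryos per group. In each sex 2 members had an unadjusted p under 0.05 (12.3% of all genes in XX, 6.31% in XY), and DESeq2 called none. Cell sums per embryo gave Ccne1 levels of 405 and 261 CPM in XX Control, 144 and 130 in XX ECKO, 327 and 320 in XY Control and 165 and 115 in XY ECKO. Both sexes showed a gap between genotypes (XX -1.28, SE 0.42, adjusted p = 0.280, and XY -1.21, SE 0.42, adjusted p = 0.719). With 2 embryos per group such gaps were common. Both ECKO embryos lay below both Controls for 9 S phase and 9 mitosis members in XX, against 17.9% of all genes. In XY this held for 9 and 6 members, against 16% of all genes. The opposite gap held for 0 and 1 members in XX (23.3% of all genes) and 1 and 4 in XY (20.8%). Cdt1 read 504 and 525 CPM in XX Control, 347 and 168 in XX ECKO, 916 and 540 in XY Control and 342 and 340 in XY ECKO. Rrm2 read 547 and 437 CPM in XX Control, 404 and 384 in XX ECKO, 576 and 330 in XY Control and 220 and 260 in XY ECKO. Top2a lay the other way in XY, with 218 and 373 CPM in Control and 714 and 562 in ECKO (1.11, SE 0.63, adjusted p = 0.778). S phase medians were -0.35 in XX and -0.70 in XY, mitosis medians -0.36 and -0.21, and medians of all genes 0.13 and 0.10. The ratio of the summed classes overlapped between genotypes in both sexes, at 1.21 and 0.922 against 1.05 and 0.923 in XX and 1.84 and 1.13 against 1.17 and 0.882 in XY. The XX ECKO embryos held 28.04 and 190.4 CPM of supporting cell markers, against at most 2.08 in XX Control, and 1356 to 1853 CPM of germ cell markers against 3259 to 3329; their part was not tested.

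Single cells carried both classes of transcripts. At a threshold of 10 CPM, no kept cell lacked all S phase members or all mitosis members. Control cells held 12 to 19 of the 19 and 11 to 20 of the 20, and ECKO cells 5 to 19 and 5 to 20. The median cell held 17 S phase members in both genotypes, and 19 mitosis members in Control and 17 in ECKO. Ccne1 reached 10 CPM in 14 of 14 and 14 of 16 cells of the XX Control embryos and in 10 of 13 and 9 of 13 of the XX ECKO embryos. In the last of these the share was 69.2% (exact 95% interval 38.6 to 90.9). Ccne1 was at that level in 13 of 13 and 22 of 22 XY Control cells while XY ECKO embryos had it in 17 of 18 and 13 of 18. Mki67 was seen in 10 of 14, 13 of 16, 10 of 13 and 21 of 22 Control cells and in 10 of 13, 11 of 13, 15 of 18 and 16 of 18 ECKO cells, with no separation by genotype. Intervals cover counting error only, and the cells of an embryo are not replicates.

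From cell to cell, levels correlated more within a class than between the classes. Ranked within embryos over 65 Control cells, mitosis members correlated with each other at a median r of 0.271 and S phase members at 0.194, while pairs across the classes had a median of -0.0385. In 62 ECKO cells the medians were 0.371, 0.265 and -0.00583. The strongest Control pairs were Ccnb1 with Kif20a (0.697), and Aurka with Tpx2 (0.672), its activator on the spindle; of S phase pairs Cdc6 with Mcm10 came highest (0.550). In ECKO the first were Cdc20 with Cenpa (0.721) and Plk1 with Aurka (0.7), with Cdc6 and Gins2 (0.677) the first S phase pair. Ranking within embryos removes differences in level between embryos. Effects of depth within an embryo may remain, and the cells of an embryo are not replicates. In Control embryos the mitosis sum exceeded the S phase sum in 4 of 14, 7 of 16, 3 of 13 and 6 of 22 cells, and in ECKO embryos in 7 of 13, 7 of 13, 5 of 18 and 6 of 18.

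**Figure D5:**
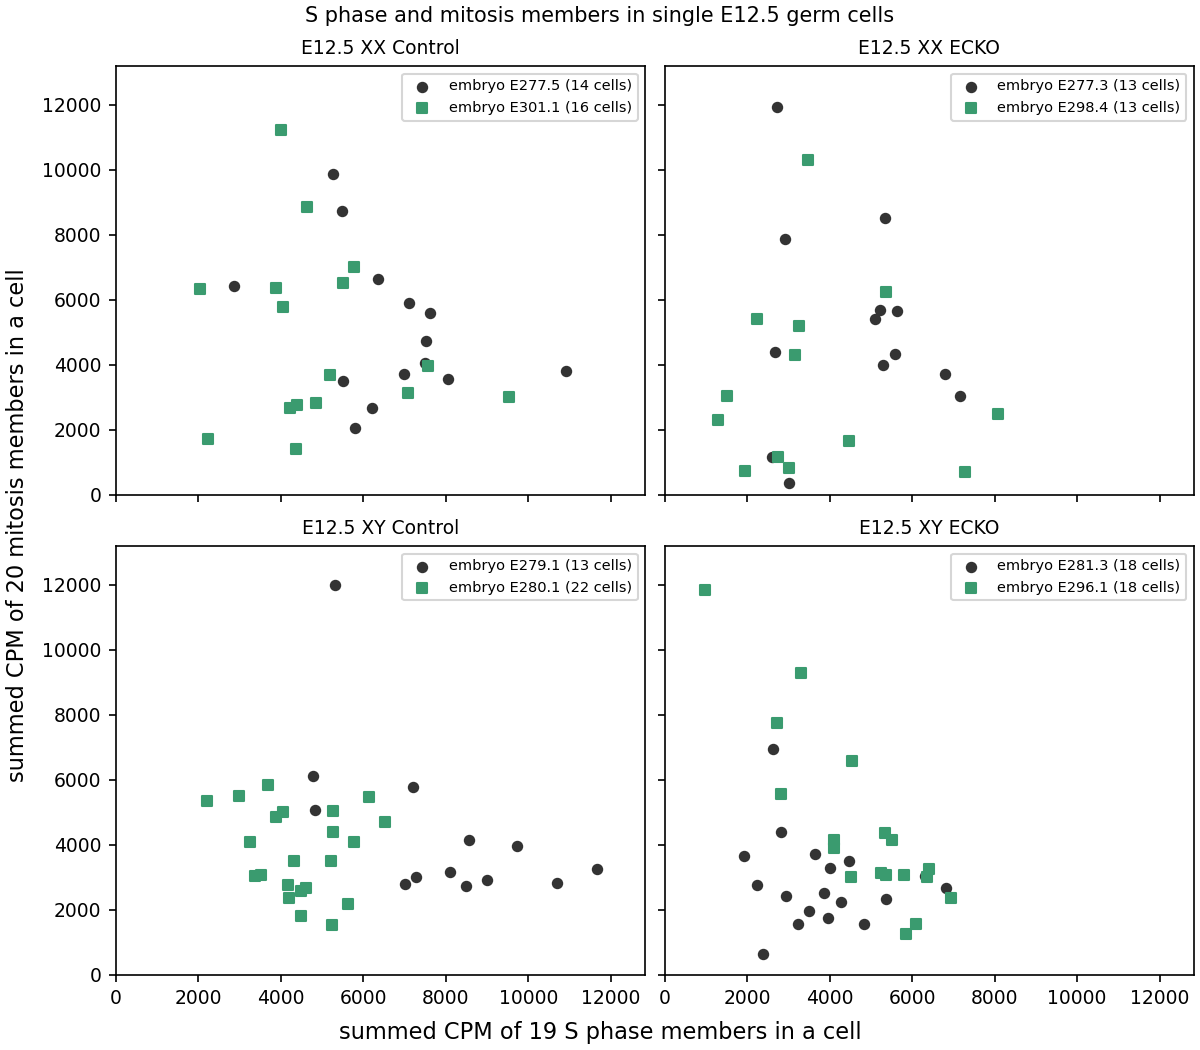
Summed CPM of the 19 S phase members (horizontal) and 20 mitosis members (vertical) in each kept E12.5 cell, by sex and genotype, with the 2 embryos of a group in different symbols. Spearman's rho between the sums runs from -0.756 to 0.0989 over the 8 embryos, and median mitosis sums per embryo run from 2493 to 4390 CPM.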

How the data were processed

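Raw counts per gene symbol were deposited by the authors in 5 tables, 3 for sorted-cell libraries and 2 for E12.5 single cells. The submitters' processing notes name HISAT2, edgeR and mm9; no source used here states the counter, annotation or strand setting. Per the labels' protocols, sorted cells went through RNeasy Micro and Ovation RNA-seq V2, and single cells through a Smart-seq2 protocol. Count columns were mapped to groups by name. The 8 bisulfite libraries were not analysed here.

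The main test was edgeR 4.0.16 (R 4.3.3): filterByExpr, TMM factors, quasi-likelihood F test, and Benjamini-Hochberg adjustment over all genes tested, with calls at adjusted p under 0.05. Each genotype comparison in sorted cells was fitted on its own table, the stage and stage-by-genotype contrasts on all 15 XY libraries, and E12.5 on counts summed per embryo over cells with at least 50000 counts and 1500 genes (127 of 192 cells; the 65 left out held a median of 1717 counts). CPM values come from these counts and TMM factors. Shares of cells carry exact Clopper-Pearson intervals. The procedure was tested on simulated data with known changes. Alternatives were DESeq2 1.42.0, no TMM factors, no filter, each library left out and the replicate number as a block. A gene span comparison was chosen after seeing the data.

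The members and gene lists were chosen with earlier results of these data known. Named genes are Eed, the 39 members, up to 4 called genes per direction and comparison in the related lists by smallest adjusted p, and Nanos2, Dnmt3l, Stra8 and Sycp3 as stage checks. One gene that the rule names is not reported here. Promoter sequences and gene spans are RefSeq's (GRCm38.p6), a build other than that of the counts, and served only for letters and span classes. The labels do not say whether replicate numbers pair the sorted-cell libraries. Same-numbered libraries correlated at -0.13 to 0.137 in their deviations from group means, and differently numbered ones at -0.167 to 0.168. With so few libraries these values cannot settle whether the numbers pair. No 2 libraries of a group agreed within sampling noise (chi-square per degree of freedom at least 4.77).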

Additional observations from a re-analysis of the deposited data

Results flagged for a closer look

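Among 164 groups of 4 libraries, 13 had 1 library whose distance from the nearest other was large against the range of its group; chance gives about 1 in 20. Control replicate 3 at E13.5 XY accounted for 3 of them: Mcm10 read 465.7 CPM against 43.6 to 71.0 in the other Controls, Bub1 537.6 against 347.4 to 369.5, and the summed mitosis members 18310 against 11070 to 12260. That library had the lowest TMM factor of its group, 0.697 against 0.878 to 0.904. Without TMM factors its mitosis sum was 12770 CPM against 9720 to 10950. Control replicate 4 of that stage had Ccne2 at 12.57 CPM against 6.16 to 6.60. In E11.5 XY Control, Mcm5 read 314.7 CPM in replicate 4 (others 278.3 to 282.8), Ccnb1 144.2 in replicate 1 (192.9 to 202.7) and Ccnb2 234.1 in replicate 3 (141.6 to 155.8). In E11.5 XY ECKO, Rrm2 read 262.6 CPM in replicate 2 (193.3 to 202.0), Tyms 65.85 in replicate 4 (84.3 to 87.9) and Birc5 196.9 in replicate 3 (130.5 to 135.5). In E11.5 XX ECKO, Birc5 read 162.2 CPM in replicate 3 (130.6 to 134.0), Cdc20 166.3 in the same replicate (99.1 to 108.0) and Bub1 144.4 in replicate 4 (231.3 to 233.7).

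The ECKO effect differed between E11.5 and E13.5 XY, by edgeR's interaction test, for Rrm2 (-2.15) and Mcm2 (-1.19) among the members. It also differed for Pola1 (-1.81), Kif14 (-2.20), Kif23 (-1.66), Cdca3 (-1.65), Ncaph (-1.56) and Mybl2 (-1.41) among related genes, which are those named by smallest adjusted p; 6 mitosis genes of the related list were called in all. The 8 values given were more negative at E13.5.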

How the results depend on the processing

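Counts of members called moved by over 1.5 times in 4 comparisons under other settings. Control stage (19 called) gave 19 to 24, and ECKO stage (19 called) 15 to 21. At E11.5 XY (1 called), DESeq2 called 4, and no TMM factors and the replicate block each left 0. At E11.5 XX (0 called), no filter gave 1 and DESeq2 2. At E13.5 XY (4 called), no filter and DESeq2 each gave 9 and the replicate block 1. For the interaction (2 called), the replicate block and no TMM factors each gave 1. The replicate block left 19 calls for Control stage, 15 for ECKO stage and 0 at E11.5 XX and for the sex interaction. The labels do not say whether the numbers pair the libraries. No paired analysis was possible for E12.5 because the columns' embryo names could not be matched to the labels' embryo numbers, and in XX the names of only 1 Control and 1 ECKO embryo share a leading number, whose meaning the labels do not give. With 1 library left out, counts ran from 0 to 1 at E11.5 XY, 1 to 17 at E13.5 XY, 16 to 25 for Control stage, 15 to 24 for ECKO stage and 1 to 12 for the interaction, and were 0 throughout at E11.5 XX, in both sexes at E12.5 and for the sex interaction. Leaving out an E12.5 embryo leaves 1 in its group, which is assumed to vary like the others. At E13.5 XY the count fell to 1 without Control replicate 1, 2 or 4 or ECKO replicate 2 or 3, and was 17 without ECKO replicate 1. Without ECKO replicate 1 Cdt1 reversed, to -0.80 against Control and -1.78 by stage, and without ECKO replicate 2 or 3 it was 4.05 and 2.94; the cause was not tested. Without TMM factors the median of all genes went from 0.05 to 0.28 at E13.5 XY, from -0.14 to -0.32 for Control stage and from 0.00 to 0.13 for the interaction. Other values tracked were fold changes of Eed, called members and some named genes. Counts of members below 0, class medians, sums and shares of cells were tracked too. Of all these values under the alternatives, 2591 stayed the same, 232 lost a call, 11 gained one, 17 moved and 2 reversed. Mcm10 was not among them at E13.5. With 1 library left out, its log2 fold change against Control there (-0.83 in the main fit) ran from -1.41 to 0.65. Its interaction ran from -0.57 to 1.32. Depth limits low members: the shallowest library held 415291 counts, and Ccne2 read 12.6 CPM or less at E13.5.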
